A study of Homo sapiens with 8 samples.

Results

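The 10 genes below, which many cell types switch on in low oxygen, were followed in a lymphoma cell line over a day of culture: ADM, ANKRD37, BNIP3, BNIP3L, CITED2, EGLN1, EGLN3, VEGFA, NDRG1 and P4HA1. They were chosen by name as known hypoxia-responsive genes, with the change of such genes over culture time in these same arrays already seen, so their change with time is a description and carries no test. The 10 genes had 14 probes, every probe whose annotated symbol was 1 of them. Of these, 11 probes of 9 genes were above background on at least 4 of the 8 arrays, and those 9 stand among 10443 genes tested. EGLN3, the third probe of VEGFA and the second probe of P4HA1 did not reach that limit.

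DOHH2 is a long-established cell line from a human B-cell lymphoma. The cells were grown in vitro and treated with BAY1238097, an inhibitor of the BET bromodomain proteins, or with DMSO, its vehicle. BAY1238097 cells were measured on 1 Illumina bead array at each of 4, 8, 12 and 24 h, and DMSO cells likewise. The sources used here give no dose, oxygen level, cell density or change of medium. Whether the arrays came from separate cultures is not labelled, so each p-value reflects the spread among time points in 1 course of 1 line, part of which may be technical, and the few arrays limit the precision.

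Cells sense oxygen mainly through prolyl hydroxylases such as EGLN1 and EGLN3, which use oxygen to mark the alpha subunits of the hypoxia-inducible factors (HIF), after which VHL directs them to degradation. When oxygen is short the alpha subunit persists, pairs with ARNT and binds DNA at the short core letters ACGTG or GCGTG near its target genes. The targets move cells towards glycolysis, vessel growth and removal of mitochondria, and some of them, among them EGLN1, EGLN3 and CITED2, act back on the pathway.

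The sequences before the start sites of 5 of the genes are shown because 4 of them had the steepest slopes over time, averaged over both arms, and P4HA1 differed between the arms. Each line holds the 250 bases before the start site, 5′ to 3′ on the gene's strand, from RefSeq on GRCh38.p14, and capitals mark every match to ACGTG or GCGTG on either strand (CACGT and CACGC on the opposite one). ADM lies at chr11:10304823-10305072 on the plus strand and ANKRD37 at chr4:185396591-185396840 on the plus strand. BNIP3 lies at chr10:131981924-131982173, CITED2 at chr6:139374649-139374898 and P4HA1 at chr10:73096867-73097116, all 3 on the minus strand. CITED2 had 3 start sites in the table and the first is shown.
ADM: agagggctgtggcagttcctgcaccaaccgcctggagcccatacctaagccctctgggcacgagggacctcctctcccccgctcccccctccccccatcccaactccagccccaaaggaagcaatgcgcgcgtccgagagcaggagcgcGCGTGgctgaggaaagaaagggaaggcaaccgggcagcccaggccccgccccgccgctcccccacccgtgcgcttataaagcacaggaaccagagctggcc
ANKRD37: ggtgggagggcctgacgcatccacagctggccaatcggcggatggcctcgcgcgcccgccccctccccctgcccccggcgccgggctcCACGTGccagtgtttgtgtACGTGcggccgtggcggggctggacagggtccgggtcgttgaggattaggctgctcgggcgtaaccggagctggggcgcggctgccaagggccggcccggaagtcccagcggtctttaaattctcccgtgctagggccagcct
BNIP3: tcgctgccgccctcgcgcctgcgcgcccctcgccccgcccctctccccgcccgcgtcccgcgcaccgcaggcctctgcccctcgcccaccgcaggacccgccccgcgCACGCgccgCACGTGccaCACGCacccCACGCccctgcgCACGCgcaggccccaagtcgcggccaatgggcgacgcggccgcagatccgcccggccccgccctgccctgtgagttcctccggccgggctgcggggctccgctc
CITED2: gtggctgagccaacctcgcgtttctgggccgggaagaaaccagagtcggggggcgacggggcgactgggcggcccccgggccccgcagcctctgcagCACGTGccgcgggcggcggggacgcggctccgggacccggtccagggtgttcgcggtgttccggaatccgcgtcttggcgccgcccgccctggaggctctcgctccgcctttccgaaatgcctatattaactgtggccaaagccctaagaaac
P4HA1: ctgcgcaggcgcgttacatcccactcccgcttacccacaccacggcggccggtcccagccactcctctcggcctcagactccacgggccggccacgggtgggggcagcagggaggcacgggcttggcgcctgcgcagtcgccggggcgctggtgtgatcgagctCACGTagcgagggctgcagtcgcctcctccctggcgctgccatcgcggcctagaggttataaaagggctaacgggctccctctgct
ADM held 1 match and P4HA1 held 1, which begin at -101 and -86 relative to the start site. ANKRD37 held 3 and CITED2 held 2 in the start site shown, and BNIP3 held 6, closely spaced. The palindrome CACGTG, which counts as a match on each strand, was present in ANKRD37, BNIP3 and CITED2. In all, 7 of the 10 genes were in the promoter table, which runs from 250 bases before to 50 after each start. Of these, 6 held at least 1 core match in at least 1 start site, against 48.4% of 35116 promoters, and EGLN3 held 0. ACGTG on either strand was present in 5 of the 7, against 21.4% of all promoters, and CACGTG in 3 of the 7, against 7.26%. The genes are counted over all their start sites and the shares are per promoter, so the units differ. Only the first of the 3 CITED2 start sites held ACGTG or CACGTG. These promoters were also richer in G and C, with a median of 69.3% over their 9 start sites against 58.7%. A match says only that these letters are present. VEGFA, BNIP3L and NDRG1 are named only.

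All levels below are deposited log2 intensities after quantile normalisation, comparable between arrays for 1 probe but not between probes. B-cell markers CD79A, CD79B, CD37 and EBF1 were above background on 8 of 8 arrays, while PAX5 was on 0. Of 5 T-cell genes, CD3D, CD3E and CD3G exceeded background on 0 of 8 arrays, CD2 on 2 and CD247 on 6. CD247, a chain of the T-cell receptor complex, was between 6.70 and 7.05 with BAY1238097 and between 7.66 and 8.01 with DMSO. Its level thus moved with treatment, and its part in the results was not tested. The BAY1238097 arrays were dimmer before normalisation than their DMSO partners, by -0.013, -0.27, -0.25 and -0.32 (log2, median over kept probes) at 4, 8, 12 and 24 h, and in each arm the earliest array was the dimmest. Brightness therefore moved with both treatment and time, and its part in the results was not tested. In bulk RNA, fewer cells expressing a gene and less RNA per cell cannot be told apart.

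The common pattern was a higher level late in culture in both arms. At 24 h 8 of the 9 measured genes stood above their 4 h level with BAY1238097, all but NDRG1, and 9 of 9 did with DMSO. Of all 10443 genes, 5363 did with BAY1238097 and 5641 with DMSO. The 24 h minus 4 h difference was largest for ANKRD37, CITED2 and ADM in both arms. The slopes on log2 hours had a median of 0.31 per doubling of time with BAY1238097 and 0.34 with DMSO, against 0.0038 and 0.0097 over all genes. Both later arrays were above both earlier ones for 8 of 9 genes with BAY1238097, where 26.3% of all genes had that order. With DMSO this was so for 6 of 9, where the share of all genes was 30.4%. These counts come from the change that led to the choice of the genes, and nothing is read from them. The median DMSO slope depended on both the first and the last arrays, being 0.19 without the 24 h arrays and 0.64 without the 4 h arrays. For BAY1238097 the corresponding medians were 0.11 and 0.78.

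**Figure D1:**
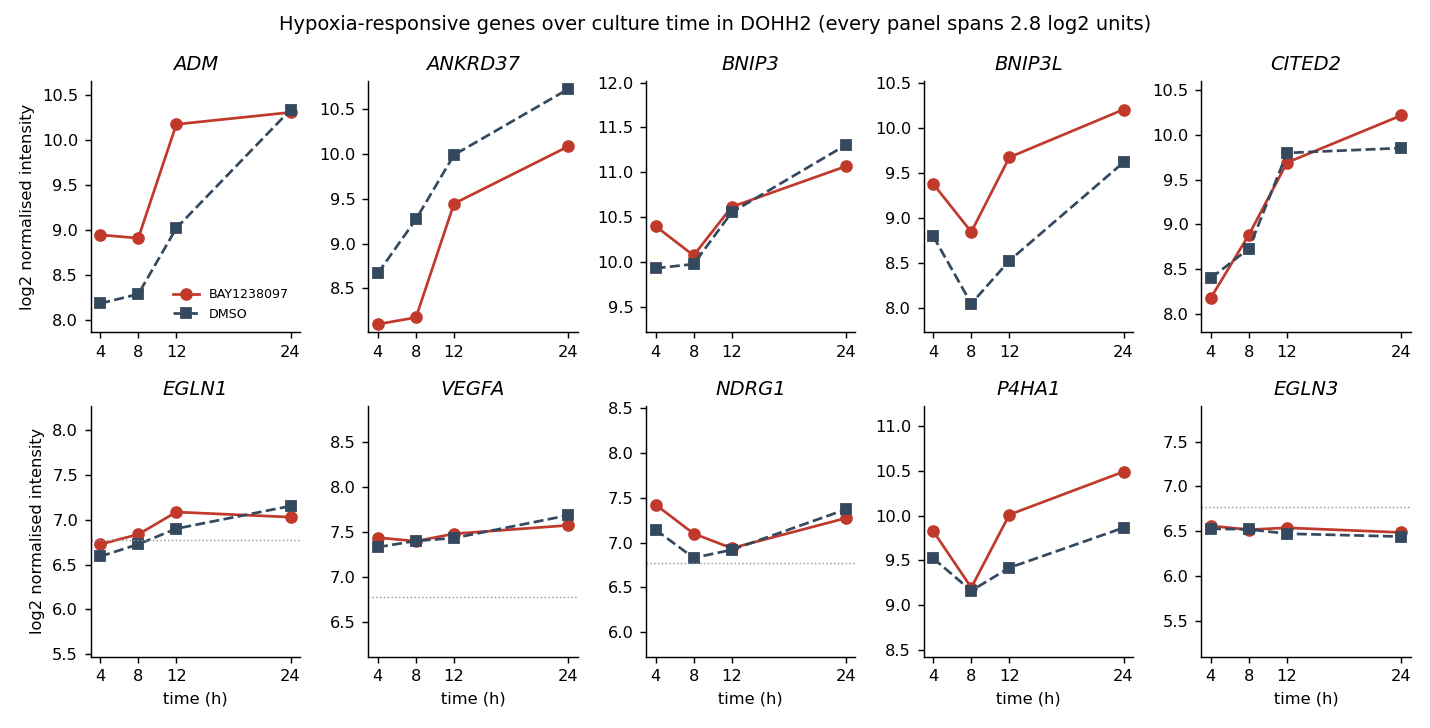
Log2 normalised intensity (vertical axis) of each gene at 4, 8, 12 and 24 h (horizontal axis, hours) on the BAY1238097 arrays (circles, solid lines) and the DMSO arrays (squares, dashed lines), 1 array per point, with the mean background limit as a dotted line where it falls in the panel. ANKRD37 lies lower and BNIP3L higher with BAY1238097 at all 4 times, and EGLN3 lies below the background limit on all 8 arrays.

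The secreted peptides and growth factors come first. ADM encodes adrenomedullin, a peptide that widens vessels. With BAY1238097 its log2 level was 8.94, 8.91, 10.18 and 10.31 at 4, 8, 12 and 24 h, against 8.18, 8.28, 9.02 and 10.34 with DMSO. The step up came between 8 and 12 h with BAY1238097 and mainly between 12 and 24 h with DMSO, and the arms met at 24 h. From 4 to 24 h this was a 2.58-fold difference with BAY1238097 and a 4.47-fold difference with DMSO. The DMSO slope of ADM, 0.86 ± 0.18 (SE) per doubling of time, ranked 1 of 10443, as a description only. Averaged over the 4 times ADM rose 1.55-fold with BAY1238097, a log2 change of 0.63 ± 0.18 (SE over 4 pairs of arrays), with an adjusted p of 0.0364. The level was higher with BAY1238097 at 3 of 4 times, by 0.76, 0.62 and 1.16 at 4, 8 and 12 h, with a difference of -0.029 at 24 h. Leaving out 4, 8 or 12 h gave adjusted p-values of 0.0643, 0.126 and 0.128, and the call also failed under median scaling (0.134) and without a filter on dim probes (0.0783).

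VEGFA encodes the growth factor that drives new vessel formation. Its brightest probe read 7.44, 7.40, 7.48 and 7.57 with BAY1238097, against 7.33, 7.40, 7.43 and 7.69 with DMSO. The values of the arms overlapped and stayed within 0.18 with BAY1238097 and 0.36 with DMSO over the day. The treatment difference was 0.01 ± 0.06 (adjusted p = 0.927). The second probe, above background at 12 and 24 h in each arm and at neither 4 nor 8 h, read 6.61, 6.76, 6.87 and 6.99 with BAY1238097, against 6.67, 6.72, 6.89 and 6.96 with DMSO. Its 4 and 8 h values are limited by background, so no slope within an arm is given. The third probe was above background on 0 of 8 arrays.

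Next are the sensors and the feedback arm. CITED2 encodes a protein that competes with HIF for the coactivators EP300 and CREBBP. Its levels were 8.18, 8.89, 9.69 and 10.22 with BAY1238097, against 8.40, 8.73, 9.80 and 9.85 with DMSO. Each array stood above the one before it in both arms, and at 24 h the level was 4.09-fold its 4 h level with BAY1238097 and 2.73-fold with DMSO. The arms crossed: BAY1238097 was higher at 8 and 24 h, by 0.15 and 0.36, and lower at 4 and 12 h, with differences of -0.22 and -0.11. The mean difference was 0.05 ± 0.10 (adjusted p = 0.765). The slope of CITED2, 0.82 ± 0.12 with BAY1238097 and 0.62 ± 0.12 with DMSO, ranked 3 and 13 of 10443, as a description only.

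EGLN1, the main HIF prolyl hydroxylase in many cells, was close to background, above it on 3 of 4 BAY1238097 arrays and 2 of 4 DMSO arrays. It read 6.73, 6.84, 7.09 and 7.03 with BAY1238097, against 6.59, 6.73, 6.90 and 7.15 with DMSO. The later arrays were the higher ones in both arms, and the sizes are limited by background on the others. The treatment difference was 0.08 ± 0.07 (adjusted p = 0.469). EGLN3, the paralog that is strongly induced by hypoxia in many cells, read between 6.49 and 6.56 with BAY1238097 and between 6.44 and 6.53 with DMSO, above background on 0 of 8 arrays. No fold is given for it.

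BNIP3 and BNIP3L sit in the outer mitochondrial membrane and recruit the autophagy machinery to mitochondria. BNIP3 read 10.40, 10.07, 10.61 and 11.07 with BAY1238097, against 9.93, 9.98, 10.55 and 11.30 with DMSO. The arms overlapped, and the difference moved from 0.47 at 4 h through 0.097 and 0.061 to -0.24 at 24 h. The mean difference was 0.10 ± 0.11 (adjusted p = 0.559). The slope was 0.29 ± 0.12 with BAY1238097 and 0.55 ± 0.12 with DMSO, a difference of -0.26 ± 0.06 that is given as a description, since it uses the same arrays as the DMSO slope.

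BNIP3L was higher with BAY1238097 on both of its probes. Its brighter probe read 9.38, 8.84, 9.68 and 10.21 with BAY1238097, against 8.80, 8.05, 8.52 and 9.62 with DMSO. BAY1238097 was higher at each time, by 0.58, 0.80, 1.15 and 0.59, although the ranges over the day overlapped. Averaged over time BNIP3L rose by 0.78 ± 0.11 (1.72-fold, adjusted p = 0.00391). The second probe read 7.67, 7.41, 7.66 and 7.90 with BAY1238097, against 7.39, 6.79, 6.89 and 7.31 with DMSO. It too was higher at 4 of 4 times, by 0.56 ± 0.09 (adjusted p = 0.0068 over all kept probes). The probes disagreed on time: with DMSO the slope was 0.34 on the brighter probe and -0.021 on the second, and with BAY1238097 it was 0.37 and 0.11. Both arms were lower at 8 h than at 4 h on the brighter probe, with differences of -0.54 with BAY1238097 and -0.75 with DMSO.

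P4HA1 encodes a subunit of the collagen prolyl hydroxylase of the endoplasmic reticulum. Its levels were 9.83, 9.20, 10.01 and 10.49 with BAY1238097, against 9.52, 9.16, 9.42 and 9.86 with DMSO. Like BNIP3L it was lowest at 8 h in both arms, and BAY1238097 was higher by 0.30, 0.035, 0.59 and 0.62 over the 4 times. P4HA1 rose with BAY1238097 by 0.39 ± 0.11 (1.31-fold, adjusted p = 0.0366). The call failed with 12 or 24 h left out (adjusted p = 0.157 and 0.106), under median scaling (0.229) and without a filter (0.0655). The second probe exceeded background on 1 BAY1238097 array and 0 DMSO arrays.

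ANKRD37 encodes a small ankyrin repeat protein, and it was the gene with the steepest slope of all with BAY1238097. It read 8.10, 8.18, 9.45 and 10.08 with BAY1238097, against 8.67, 9.27, 9.99 and 10.72 with DMSO. At every time the BAY1238097 array was the lower one, with differences of -0.57, -1.09, -0.54 and -0.64. ANKRD37 fell with BAY1238097 by 0.71 ± 0.10 on the log2 scale, 1.64-fold lower, with an adjusted p of 0.00481. Its slopes were 0.84 ± 0.13 with BAY1238097, rank 1 of 10443, and 0.82 ± 0.13 with DMSO, rank 2, as a description only. At 24 h the level was 3.95-fold its 4 h level with BAY1238097 and 4.15-fold with DMSO. The slope difference was 0.02 ± 0.11, and 0.25 without the 4 h arrays.

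NDRG1 encodes a stress-responsive protein linked to growth arrest and differentiation. It read 7.42, 7.10, 6.94 and 7.27 with BAY1238097, against 7.14, 6.83, 6.92 and 7.37 with DMSO. The 4 h array was the highest with BAY1238097 and the 24 h array the highest with DMSO. The treatment difference was 0.12 ± 0.08 (adjusted p = 0.337), and the slopes were -0.07 ± 0.11 with BAY1238097 and 0.09 ± 0.11 with DMSO. The BAY1238097 slope was 0.042 under median scaling and 0.13 without the 4 h arrays.

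Across the 9 genes, 3 rose with BAY1238097 (BNIP3L, ADM and P4HA1) and 1 fell (ANKRD37), where 15.5% of the 10443 genes rose and 14.8% fell by limma with the time point as a factor. The treatment differences had a median of 0.097, against 0.010 over all genes. Of the 9 genes 8 were above 0, where 52.2% of all genes were, and under median scaling 5 of 9 were. By time, the median difference of the 9 genes was 0.28, 0.11, 0.061 and -0.097 at 4, 8, 12 and 24 h. At these times 7, 7, 7 and 3 of the 9 were higher with BAY1238097, and 5459, 5409, 5303 and 5283 of all 10443. BNIP3L and ANKRD37 kept their calls under each scaling, filter and left-out time that was tried. In a model that did not pair the arrays by time, 0 of 9 passed, also at an unadjusted p of 0.05, and BNIP3L and ANKRD37 had adjusted p-values of 0.192 and 0.446.

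**Figure D2:**
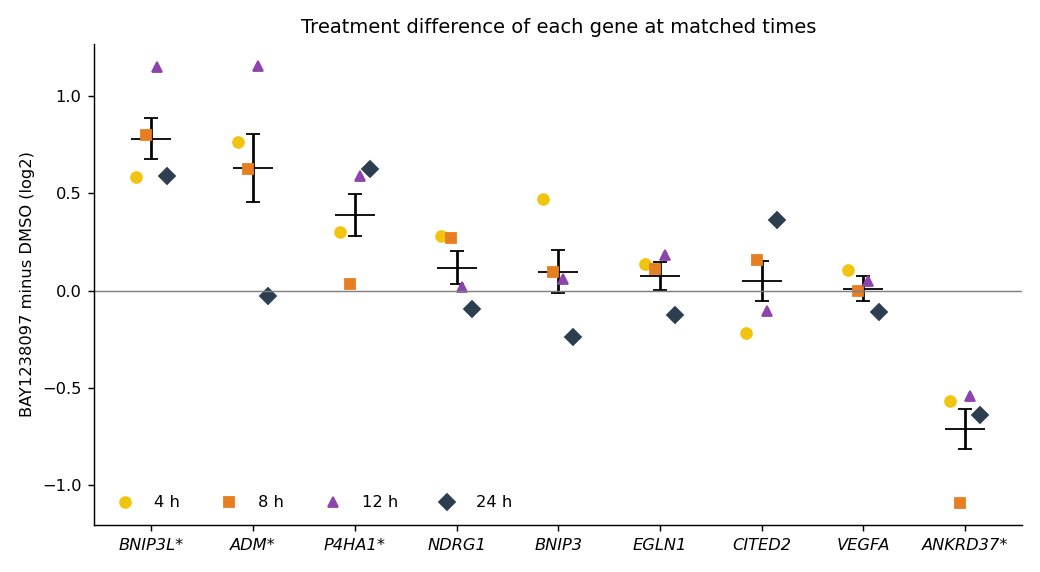
BAY1238097 minus DMSO (vertical axis, log2) for the 9 measured genes, with 1 coloured point per time and black bars for the mean and its standard error over 4 time points. Asterisks mark an adjusted p under 0.05. BNIP3L and P4HA1 have all 4 points above 0, ANKRD37 all 4 below 0, and the 24 h point of ADM lies at -0.029.

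The slopes of the genes in each arm lay side by side. With BAY1238097 they ran from -0.07 for NDRG1 to 0.84 for ANKRD37, and with DMSO from 0.09 for NDRG1 to 0.86 for ADM. The slope differences, BAY1238097 minus DMSO, had a median of -0.076, from -0.26 for BNIP3 to 0.19 for CITED2. On their brightest probe BNIP3, NDRG1 and VEGFA stayed below 0, and CITED2 and P4HA1 above it, under each setting that was tried. The second probe of VEGFA, limited by background at 4 and 8 h, had the other sign (0.031). The sign turned for ADM (-0.25, and 0.21 without the 24 h arrays) and EGLN1 (-0.089, and 0.025 without them). It also turned for BNIP3L (0.031, and -0.18 without the 4 h arrays, -0.010 without the 12 h arrays, -0.080 under median scaling and -0.071 on linear hours). For ANKRD37 the value was 0.02, with -0.092 under median scaling and -0.024 and -0.042 without the 8 or 24 h arrays. Without the 24 h arrays the DMSO slopes of BNIP3L, NDRG1 and P4HA1 were -0.23, -0.16 and -0.098, so their late level rested on the last array. Over all genes, 4.93% rose and 4.2% fell with time with BAY1238097, 3.57% rose and 4.18% fell with DMSO, and the slope difference passed upward in 1.82% and downward in 1.69%. Nothing is read from the chosen genes' own places among these, nor from the ranks of their slopes given above.

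**Figure D3:**
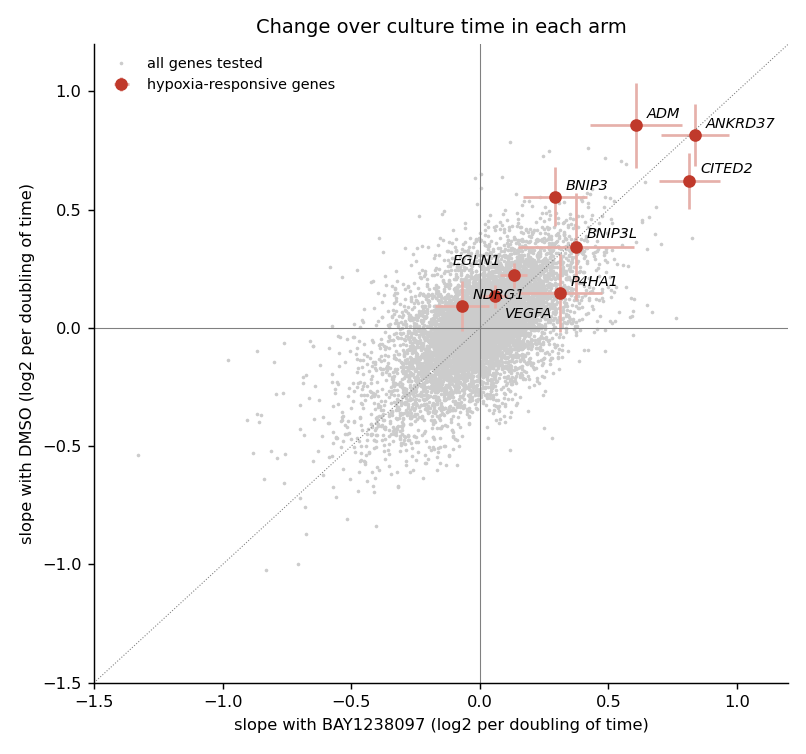
Slope on log2 hours with BAY1238097 (horizontal axis) against that with DMSO (vertical axis), both in log2 per doubling of time, for all 10443 genes (grey) and the 9 hypoxia-responsive genes (red, with standard errors). ANKRD37, ADM and CITED2 lie furthest to the upper right, and NDRG1 lies near 0 in both arms.

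Over the 8 arrays the genes differed in how closely each followed the mean of the others, as a description only, since all share the same arrays and the same late level. Pearson's r was 0.96 for BNIP3, 0.94 for ADM and 0.90 for VEGFA and EGLN1. It was 0.81 for CITED2, 0.77 for P4HA1, 0.74 for BNIP3L, 0.67 for ANKRD37 and 0.32 for NDRG1. EGLN1 was above background on only 5 of the 8 arrays, and at 4 h in neither arm. Among pairs BNIP3 and VEGFA had 0.96 and BNIP3L and P4HA1 0.94. Outside the 10 genes, the 5 genes whose profile was most like the mean profile of the 9 measured ones were CEL, ATOSB, CEP250, PFKFB3 and PGM1, with r between 0.971 and 0.977 over 8 arrays. The first 3 were above background on only 5, 4 and 4 arrays. PFKFB3, which makes the activator of the glycolytic enzyme phosphofructokinase, read 9.25, 9.16, 10.11 and 10.58 with BAY1238097, against 8.90, 9.33, 9.92 and 10.65 with DMSO. PGM1, which links glycogen to glycolysis, read 10.70, 10.42, 10.90 and 11.34 with BAY1238097, against 10.48, 10.46, 10.93 and 11.27 with DMSO.

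The rest of the pathway was read from 5 lists of 127 entries, 95 of them tested. Of 15 oxygen sensing genes, 1 rose and 2 fell with BAY1238097 (median 0.085), shares of 6.67% and 13.3%. Over all genes these shares were 15.5% and 14.8%. HIF1AN, which hydroxylates HIF to block its coactivators, rose by 0.38 ± 0.06 (adjusted p = 0.00789), a call lost without the 12 h arrays (0.0535). The chaperone HSP90AA1 fell by 0.31 ± 0.09 (adjusted p = 0.0401) and the ubiquitin ligase SIAH1 by 0.24 ± 0.07 (0.0457). Neither held with 8 or 12 h left out (adjusted p = 0.124 and 0.134 for HSP90AA1, 0.185 and 0.200 for SIAH1), nor HSP90AA1 without the 24 h arrays (0.105). HIF1A itself, the alpha subunit, read 8.31, 8.36, 8.15 and 8.14 with BAY1238097, against 8.28, 8.35, 8.06 and 7.93 with DMSO. Its treatment difference was 0.085 ± 0.063 (adjusted p = 0.361). VHL differed by 0.18 ± 0.06 (adjusted p = 0.0571) and EGLN2 by 0.11 ± 0.08 (0.337). The partner ARNT read 6.81, 6.87, 6.80 and 6.92 with BAY1238097, against 6.77, 6.71, 6.68 and 6.74 with DMSO. Since it exceeded background on 4 BAY1238097 arrays and 0 DMSO arrays, it was kept through the BAY1238097 arrays alone, and no fold or test is given. EPAS1, the other main alpha subunit, was not above background on any array.

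Genes of glycolysis and glucose uptake are classical HIF targets. Of 22 tested, 4 passed upward with time with BAY1238097, where 4.93% of all genes did, and 8 with DMSO, where 3.57% did. These counts come from the same contrast that led to the choice of the genes above, and nothing is read from them. As a description, the median slope of the 22 was 0.072 per doubling of time with BAY1238097 and 0.25 with DMSO. Single genes differed: ALDOA had 0.085 with BAY1238097 and 0.43 with DMSO, ENO1 -0.11 and 0.12, and ALDOC -0.49 and -0.23. The slope of SLC2A3, a glucose transporter, was 0.42 per doubling of time in both arms. That of PFKFB3 was 0.57 with BAY1238097 and 0.69 with DMSO, and that of TPI1, an enzyme of glycolysis, 0.26 and 0.37. With treatment 1 rose and 3 fell, with a median of -0.13, where 15.5% and 14.8% of all genes did so. The 3 were 9 without the 4 h arrays, 1 without the 8 h and 1 without the 12 h arrays, 2 without the time factor and 6 under median scaling, and the 1 was 3 without the 24 h arrays. HK2, which traps glucose in the cell, fell by 0.80 ± 0.14 (adjusted p = 0.00782), PFKP by 0.50 ± 0.11 (0.0188) and PFKM by 0.48 ± 0.09 (0.0105). PKM, the last step of the pathway, rose by 0.42 ± 0.09 (adjusted p = 0.0152). With 8 or 12 h left out PFKP (adjusted p = 0.0558 and 0.0600), PFKM (0.0602 and 0.0615) and PKM (0.0607 and 0.0814) did not pass, nor did PKM under median scaling (0.259). GPI had a slope difference of -0.43 ± 0.07 (adjusted p = 0.0335), reading 11.34, 10.46, 10.39 and 10.33 with BAY1238097, against 11.01, 10.76, 10.70 and 11.15 with DMSO. That adjusted p was 0.113 on linear hours and 0.533 for late minus early arrays.

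Of 34 other hypoxia-induced genes, 6 rose and 7 fell with BAY1238097 (median 0.019), shares of 17.6% and 20.6% where 15.5% and 14.8% of all genes did so. DDIT4, a brake on mTORC1, rose by 0.91 ± 0.13 (adjusted p = 0.00427). The histone demethylase KDM3A rose by 0.75 ± 0.06 (0.00105), NARF by 0.73 ± 0.10 (0.00413) and WSB1 by 0.55 ± 0.07 (0.00339). Of those that fell, AK4, a mitochondrial adenylate kinase, did so by 0.52 ± 0.14 (adjusted p = 0.0295), the chemokine receptor CXCR4 by 0.44 ± 0.07 (0.00705) and the repressor BHLHE41 by 0.43 ± 0.10 (0.0192). AK4 did not pass with 8, 12 or 24 h left out (0.131, 0.0935 and 0.0819), nor BHLHE41 with 8 or 12 h left out (0.0785 and 0.0605). The count of 7 was 10, 1, 2 and 3 with 4, 8, 12 or 24 h left out and 11 under median scaling. Without the time point in the model it was 0 by limma (6 at an unadjusted p under 0.05), and the 6 that rose were then 3. Of 11 paralogs and partners 1 fell and 0 rose with treatment, shares of 9.09% and 0% where 14.8% and 15.5% of all genes did so. It was VEGFB, which fell by 0.36 ± 0.07 (adjusted p = 0.0144) and did not pass without the 8 or 12 h arrays (0.0767 and 0.0663). The time calls of all lists rest on the log2 scale of hours and on the quantile scaling. On linear hours 25 genes of 10443 passed with BAY1238097 and 0 with DMSO by limma (1888 and 1696 at an unadjusted p under 0.05). Under median scaling 0 passed in either arm (2464 with BAY1238097 and 3672 with DMSO, unadjusted). Without the 4 or 8 h arrays 2 and 1 passed with BAY1238097, and 0 and 0 with DMSO (1212 and 2567 unadjusted).

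The mitophagy and autophagy list, to which BNIP3 and BNIP3L relate by role, had 9 of 15 genes higher and 1 lower with BAY1238097, with a median of 0.26, where 15.5% of all genes rose and 14.8% fell. Of 6 genes of cell stress, 4 were above background on 8 of 8 arrays, and HSPA1A and GDF15 on 0. The stress factor ATF3 read 9.88, 8.87, 8.07 and 7.89 with BAY1238097, against 7.66, 7.30, 7.14 and 7.31 with DMSO. At 4 h the chaperone genes HSPA1B and DNAJB1 read 9.46 and 9.28 with BAY1238097 against 8.23 and 8.28 with DMSO, and DDIT3 read 8.59 against 7.87. At 24 h HSPA1B, DNAJB1 and DDIT3 were lower with BAY1238097 (9.02, 8.42 and 7.59, against 9.12, 8.56 and 7.68). The part of these genes in the autophagy list's change was not tested. SQSTM1, a cargo receptor of autophagy, rose by 1.15 ± 0.08 (adjusted p = 0.000711) and MAP1LC3B, which coats the autophagosome, by 0.81 ± 0.07 (0.00115). GABARAPL2, of the same family, rose by 0.48 ± 0.09 (0.0108). PINK1, the kinase that marks damaged mitochondria, rose by 0.59 ± 0.15 (0.0255). FUNDC1, a hypoxia-linked mitophagy receptor, fell by 0.31 ± 0.08 (0.0321), and not past the threshold without the 12 or 24 h arrays (0.130 and 0.0729). Without the 8 or 12 h arrays GABARAPL2 (0.0523 and 0.0604) and PINK1 (0.0879 and 0.111) did not pass, nor PINK1 without the 24 h arrays (0.0631). PINK1 read 6.94, 7.39, 7.68 and 7.87 with BAY1238097, against 6.88, 6.88, 6.87 and 6.87 with DMSO. The DMSO values were close to the background limit of those arrays, 6.76 to 6.77, and the part of this was not tested. The slope difference of PINK1 was 0.37 ± 0.06 (adjusted p = 0.0366 by limma) and did not pass without the 4 or 12 h arrays (0.0544 and 0.0603). Over time the slope of SQSTM1 was -0.47 with BAY1238097 and -0.38 with DMSO, as a description. The count of 9 was 3 without the 8 h arrays, 2 without the 12 h arrays, 5 without the 24 h arrays, 5 without the time point in the model and 6 under median scaling.

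**Figure D4:**
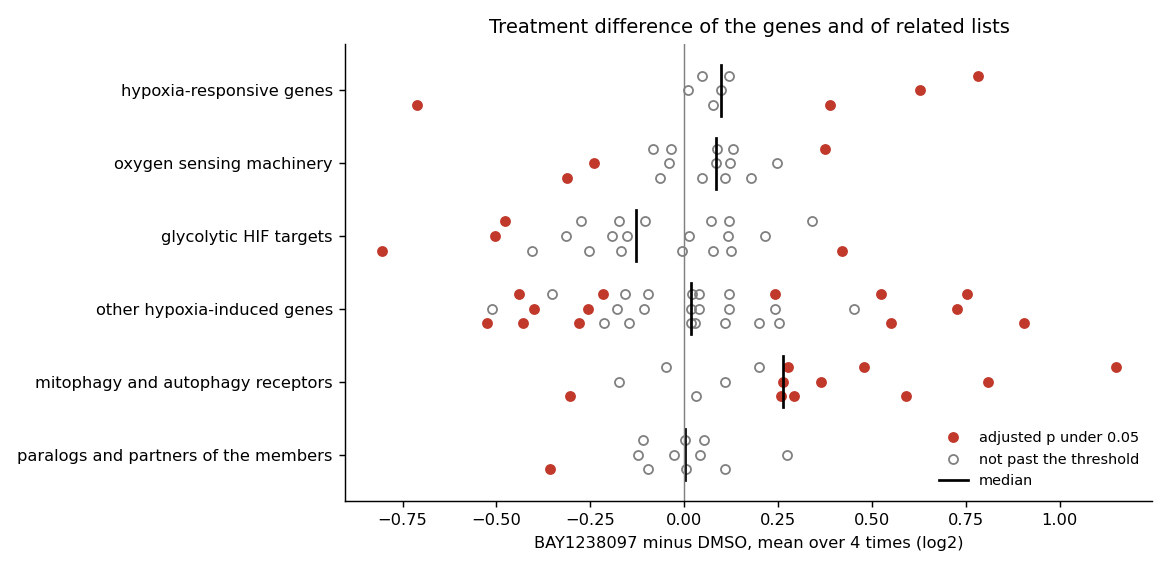
Treatment difference averaged over 4 times (horizontal axis, log2, BAY1238097 minus DMSO) of each tested gene in 6 groups, with filled points for an adjusted p under 0.05, open points for the rest and a black bar for the group's median. The medians run from -0.13 for the glycolytic targets to 0.26 for the mitophagy and autophagy list. The oxygen sensing genes include ARNT, which was kept through the BAY1238097 arrays alone.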

How the data were processed

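Total RNA of 8 DOHH2 samples was read on Illumina bead arrays with 47231 probes. The deposited value table holds log2 values, and per the file headers the second table holds non-normalized intensity values. Quantile normalisation of the log2 intensity gave the deposited log2 values within 0.00256, so no background correction separates them. Scanner software and other steps are not given in the sources used here. In addition, the intensity table has 10 unnamed columns with 0 values.

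Probe genes came from the platform annotation: 30113 probes had 1 symbol, 8 several and 17110 none. Background was set by 437 olfactory receptor probes, in the absence of detection values here. A probe was kept when the share of them at least as bright was under 0.05 on at least 4 of 8 arrays, which left 18640 probes. The brightest kept probe stood for a gene, giving 10443 genes.

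limma 3.58.1 in R 4.3.3 (lmFit, eBayes) gave BAY1238097 minus DMSO in a model that holds each time point as a factor, and slopes on log2 hours in a model of treatment, log2 hours and the product of both. Adjusted p-values are Benjamini-Hochberg over all genes, with a threshold of 0.05. Errors are standard errors of the fit. Figures used matplotlib 3.10.9 in Python 3.11.15. In the model the time point pairs the arrays. At 4, 8, 12 and 24 h the partners' deviations from their group means had r = 0.60, 0.40, 0.67 and 0.48 across kept probes. Between different times r ran from -0.66 to 0.52. The highest, for BAY1238097 at 12 h with DMSO at 24 h, was above the matched values at 8 and 24 h, so r is not particular to matched times. No array was a copy of another. The steps were tested on simulated data.

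The members, the lists and the tests were chosen with earlier results of these data known. Named genes were all 10 members, up to 4 called genes of each list with the largest treatment change, HIF1A, EPAS1, ARNT, VHL, HIF1AN and EGLN2, and the 5 genes most like the members' mean profile. Other genes named for time trends or slope differences, FUNDC1, AK4, CXCR4 and BHLHE41 were named after their values were seen. Alternatives were other normalisations, a background correction with an offset of 50, other filters, all probes, leaving out each time, no time factor and other time scales.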

Additional observations from a re-analysis of the deposited data

Results flagged for a closer look

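2 genes of the pathway lists had a treatment difference that changed with time, by the treatment by log2 hours term of limma over all genes. GPI, an enzyme of glycolysis, had a slope difference of -0.43 ± 0.07 per doubling of time (BAY1238097 minus DMSO, adjusted p = 0.0335), with slopes of -0.38 with BAY1238097 and 0.047 with DMSO. PINK1 had a slope difference of 0.37 ± 0.06 (adjusted p = 0.0366), with slopes of 0.37 with BAY1238097 and -0.0031 with DMSO. Its DMSO values, 6.87 to 6.88, were close to the background limit of 6.76 to 6.77, and the part of this was not tested. For both genes the term did not pass on linear hours (adjusted p = 0.113 for GPI and 0.147 for PINK1) or for late minus early arrays (0.533 and 0.487). No array of the 9 hypoxia-responsive genes stood apart from the other 3 of its arm by Dixon's test.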

How the results depend on the processing

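With 1 array per treatment and time, depth of replication limits every value, and brightness differed with treatment and time. Quantile normalisation of the intensity table, background correction and the stricter filter moved none of the counts and medians given next by over 1.5 times. The 3161 treatment calls were 4758 over all kept probes, 1276 to 4124 with 1 time left out and 1485 without the replicate block that pairs arrays by time. Median scaling changed their split to 806 higher and 2425 lower, against 1620 and 1541. Of the 9 genes, 4 passed for treatment, 2 under median scaling, 2 without a filter, 2 to 3 with 1 time left out and 0 without the replicate block (0 at an unadjusted p under 0.05). The limma DMSO trend calls (809) were 321 without a filter, 0 to 2156 with 1 time left out, and 0 under median scaling, on linear hours and for late minus early arrays (3672, 1696 and 2322 at an unadjusted p under 0.05). Those at 0 with 1 time left out, without the 4 or 8 h arrays, had 1212 and 2567 at that p. The BAY1238097 trend calls (954) were 25 on linear hours, 1 to 1447 with 1 time left out, and 0 under median scaling and for late minus early arrays (2464 and 2111 unadjusted). The slope difference calls (367) were 570 over all kept probes, 157 to 1293 with 1 time left out, and 0 on linear hours and for late minus early arrays (1666 and 1013 unadjusted). The median slope of the 9 genes was 0.44 with BAY1238097 and 0.61 with DMSO under median scaling, which moved the median of all genes to 0.10 and 0.15. Relative to that shift the medians were 0.34 and 0.45, with 8 and 9 of 9 genes above it. With 1 time left out they were 0.11 to 0.78 with BAY1238097 and 0.19 to 0.64 with DMSO. Under median scaling, which moved the treatment median of all genes to -0.072, 5 of 9 genes stood above that median. The treatment difference then changed sign for CITED2 (-0.13), BNIP3 (-0.11), VEGFA (-0.094), HIF1A (-0.047), VHL (-0.044) and EGLN2 (-0.10), none of which passed in either scaling. With 1 time left out it ran from -0.057 to 0.14 for CITED2, -0.027 to 0.21 for BNIP3 and -0.022 to 0.050 for VEGFA. HK2, KDM3A, WSB1, NARF, MAP1LC3B and SQSTM1 kept their treatment calls under each alternative run. Without the replicate block DDIT4 (adjusted p = 0.197), HIF1AN (0.113), SIAH1 (0.159), HSP90AA1 (0.197), PFKP (0.0548), PKM (0.245), PINK1 (0.0560) and VEGFB (0.284) did not pass. HSP90AA1 also failed under median scaling (0.0978) and without a filter (0.0613), PINK1 without a filter (0.0540) and SIAH1 after background correction (0.0551). VHL passed without a filter (0.0283) and without the 4 h arrays (0.0472). The causes were not tested.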
